A study of Homo sapiens with 9 samples.

Results

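The genes described here are 10 ligands and receptors of blood and lymph vessel growth, taken by name from 60642 gene names in the count and TPM tables. They are the VEGF ligands VEGFA, VEGFB, VEGFC, VEGFD and PGF, the VEGF receptors FLT1, KDR and FLT4, and the angiopoietins ANGPT1 and ANGPT2. The rule goes by name, and the pathway was picked with earlier results of these data known, after the study reported angiogenesis terms for EMX1-X1 cells. RNA-seq was made from SNU-398, an established hepatocellular carcinoma (HCC) cell line with a mesenchymal-like phenotype. The question was how the level of each gene differed between cells that overexpress EMX1, a homeodomain transcription factor, and cells with the empty vector. Of the 10 genes, 8 passed the filter on low counts and were tested among 18574 genes. FLT1 and KDR did not pass it.
There were 3 groups of 3 libraries each. The vector control carried the lentiviral vector without EMX1. EMX1-FL cells overexpressed the full-length isoform, and EMX1-X1 cells an isoform with an alternative terminal exon. By the labels the vector control is wild type, the other groups differ from it by the overexpressed isoform, and all 3 groups went through puromycin selection after lentiviral delivery, so the controls share the drug with the overexpressing cells. The promoter that drives EMX1 is not given in the sources used here. The labels do not say whether each group is 1 pool or 1 clone, nor whether the 3 libraries came from separate cultures, so the p-values below measure the spread between these libraries, which may be technical.

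VEGF ligands bind receptor tyrosine kinases on the cell surface. VEGFA acts through FLT1 and KDR, VEGFB and PGF bind FLT1, and VEGFC and VEGFD bind FLT4 and, once processed, KDR. In a tumour the ligands come largely from tumour and stromal cells, and FLT1, KDR and FLT4 are known mainly from endothelium. ANGPT1 is the activating ligand of the endothelial receptor TEK, and ANGPT2 is its context-dependent antagonist.

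The upstream sequences of the 2 ligands with the highest TPM, of PGF and of the 2 receptors that were hardly counted are shown, so that the promoters of counted and of hardly counted genes can be compared. They are RefSeq sequences on GRCh38.p14, each from 250 to 51 bases before the annotated start, 5′ to 3′ on the gene's strand. Capitals mark the GC box GGGCGG on either strand, and overlapping matches run together. The VEGFB window is chr11:64234334-64234533 on the plus strand, the VEGFC window chr4:176792973-176793172 on the minus strand, the PGF window chr14:74955815-74956014 on the minus strand (the more upstream of 2 listed starts), the FLT1 window chr13:28495179-28495378 on the minus strand, and the KDR window chr4:55125646-55125845 on the minus strand.
VEGFB: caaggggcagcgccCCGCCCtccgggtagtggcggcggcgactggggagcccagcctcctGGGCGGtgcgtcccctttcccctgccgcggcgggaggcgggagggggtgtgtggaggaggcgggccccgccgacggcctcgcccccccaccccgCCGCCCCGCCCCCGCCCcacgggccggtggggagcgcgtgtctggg
VEGFC: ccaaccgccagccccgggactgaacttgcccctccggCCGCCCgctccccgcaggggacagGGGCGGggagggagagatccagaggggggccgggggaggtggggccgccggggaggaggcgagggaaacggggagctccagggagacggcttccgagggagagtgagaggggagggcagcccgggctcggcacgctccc
PGF: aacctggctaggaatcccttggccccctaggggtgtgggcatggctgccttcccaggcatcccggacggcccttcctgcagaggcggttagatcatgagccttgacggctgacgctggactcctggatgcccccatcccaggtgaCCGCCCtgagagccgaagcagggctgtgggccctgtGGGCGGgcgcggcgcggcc
FLT1: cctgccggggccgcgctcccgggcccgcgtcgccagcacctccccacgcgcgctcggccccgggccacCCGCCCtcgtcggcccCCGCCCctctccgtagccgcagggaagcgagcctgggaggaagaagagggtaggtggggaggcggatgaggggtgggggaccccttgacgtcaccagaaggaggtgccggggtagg
KDR: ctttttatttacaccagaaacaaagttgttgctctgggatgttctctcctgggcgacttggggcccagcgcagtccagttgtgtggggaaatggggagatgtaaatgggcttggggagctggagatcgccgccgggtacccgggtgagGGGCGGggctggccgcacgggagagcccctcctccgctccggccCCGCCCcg
All 5 windows were rich in G and C, at 82.5% for VEGFB, 76.5% for VEGFC, 69% for PGF, 76.5% for FLT1 and 64% for KDR, against a median of 57.5% over 35116 windows of the same length. The GC box was found 5 times in the VEGFB window and 2 times in each of the other 4. It was present in 35% of all windows. Neither the homeodomain core TAATTA nor the hypoxia response core ACGTG was found on either strand in these 5 windows, nor in the second PGF window or that of VEGFD. They were present in 3.74% and 14.4% of all windows. The ligand with the highest TPM and a receptor that was hardly counted thus both had GC-rich windows with GC boxes and without the other 2 motifs. The VEGFD window, not shown, differed from these, at 44.5% GC, below that median, and without a GC box. VEGFD was also a gene with few counts, so the windows of such genes were not all alike. No link between window and level was tested.

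The libraries held from 21562703 to 25197970 counted read pairs. EMX1 itself had a mean CPM of 10.7 ± 1.90 for the vector control, 177 ± 64.2 for EMX1-FL and 242 ± 84.5 for EMX1-X1 (SD, n = 3 each). All 6 overexpression libraries were above all vector libraries. Counts per gene name do not tell the 2 isoforms apart, and EMX1-FL and EMX1-X1 overlapped, so this checks the labels of vector and overexpression but not those of the isoforms. CPM scale the counts to 1000000 read pairs with TMM-normalised library sizes. Of 7 hepatocyte and hepatoma markers, AFP and TTR had no count in any library and GPC3 was at 14.5 to 26.7 TPM. The 5 mesenchymal markers summed to between 783 and 1220 TPM per library, most of it VIM. Of 10 endothelial markers, CDH5 and EMCN had no count and 8 stayed under 1 TPM in every library, with EGFL7 and ESAM as the exceptions. The libraries also fell into 2 clusters on the first principal component, which held 39.6% of the variance. Cluster A held vector control 1 and 2, EMX1-FL 2 and 3 and EMX1-X1 1, and cluster B the other 4. This split was read from the counts themselves and no label gives it. Since EMX1-X1 had 2 of its 3 libraries in cluster B and the other groups 1, the differences of the members with ample counts are also given within the clusters.

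VEGFB and VEGFC were the members with the highest expression per length in every group. On the TPM scale, which divides by gene length and by library total, VEGFB was at 210 ± 12.1 in the vector control, 155 ± 23.0 in EMX1-FL cells and 286 ± 93.7 in EMX1-X1 cells (SD, n = 3 each). VEGFC followed at 117 ± 10.8, 105 ± 17.5 and 113 ± 6.86 TPM, and ANGPT1 at 46.1 ± 13.4, 58.2 ± 17.5 and 43.8 ± 15.2 TPM. In each group the libraries of VEGFB lay above those of VEGFC, and those of VEGFC above those of ANGPT1. VEGFA was at 21.6 ± 0.516, 22.1 ± 5.01 and 21.2 ± 1.64 TPM, and FLT4 at 18.4 ± 2.17, 23.9 ± 8.61 and 23.9 ± 3.43 TPM. VEGFA lay above FLT4 in the vector control, while in both overexpression groups their libraries overlapped. PGF was lower, at 2.77 ± 0.791, 3.73 ± 1.03 and 5.52 ± 1.51 TPM, and VEGFD and ANGPT2 were under 1 TPM in every library and overlapped in each group. FLT1 and KDR were at or near 0.

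**Figure D1:**
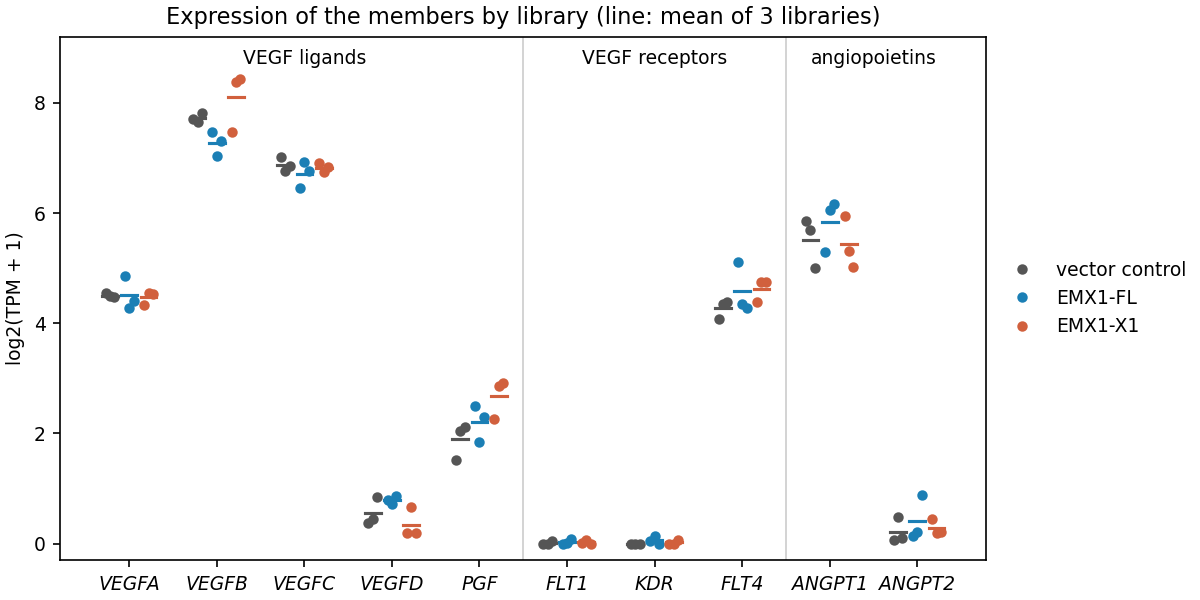
Expression of the 10 genes as log2(TPM + 1), 1 point per library and a line at the mean of 3 libraries, in the order ligands, receptors and angiopoietins. VEGFB sits highest in each group, FLT4 is the only VEGF receptor well above 0, and VEGFD, FLT1, KDR and ANGPT2 sit close to 0.

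The place of VEGFA in this order depends on the length used. The count table gives VEGFA 14431 exon bases, all annotated transcripts merged, while its longest coding transcript has 3535 bases, a ratio of 4.08. For PGF the ratio was 3.01, for ANGPT1 1.64, for FLT4 1.51, for VEGFC 1.27 and for VEGFB 1.12. With the longest coding transcript, VEGFA in the vector control was at 25.1 ± 1.19 CPM per kilobase against 21.3 ± 5.00 for ANGPT1, and with all exons at 6.16 against 13. VEGFB stayed first and VEGFC second in every group under both lengths. Counts per gene do not tell the splice forms of VEGFA or PGF apart, nor the soluble form of FLT1 from the receptor.

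VEGFA, the main ligand of vessel sprouting, had small differences between the groups in value, and none passed the thresholds. It lies on chromosome 6 from 43770184 to 43786487 on the plus strand of GRCh38, and AL136131.3 overlaps 1.3% of its exon bases. Its CPM were 86.2, 86.8 and 93.7 in vector control 1 to 3, 109, 71.2 and 74.6 in EMX1-FL 1 to 3, and 73.6, 84.0 and 85.6 in EMX1-X1 1 to 3. EMX1-FL 1 was the highest of the 9 libraries and EMX1-FL 2 and 3 were below all vector libraries, so EMX1-FL spanned the other groups, whereas all 3 EMX1-X1 libraries were just below the vector libraries. EMX1-FL cells had a log2 fold change of -0.06 against the vector (standard error 0.19, 95% interval -0.48 to 0.35, adjusted p = 0.997), and EMX1-X1 cells one of -0.13 (standard error 0.19, interval -0.54 to 0.28, adjusted p = 0.843). These and the following p-values are from the quasi-likelihood test of edgeR, adjusted by Benjamini-Hochberg over all genes tested. A change of VEGFA by a fold of 2 in either direction lies outside both intervals. Within clusters A and B the value was -0.25 and 0.22 for EMX1-FL, of opposite sign, and -0.23 and -0.14 for EMX1-X1. With an offset for the GC content of genes, EMX1-X1 was at -0.35 against the vector (unadjusted p = 0.00253, adjusted p = 0.173, edgeR) and EMX1-FL at 0.27 against EMX1-X1 (unadjusted p = 0.0144, adjusted p = 0.482, edgeR).

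VEGFB, a ligand of FLT1, was lower in value in every EMX1-FL library, without passing the thresholds. It lies on chromosome 11 from 64234538 to 64238793 on the plus strand and shares no exon base with another gene. Its CPM were 85.7, 86.6 and 106 in vector control 1 to 3, 74.2, 54.3 and 62.8 in EMX1-FL 1 to 3, and 72.9, 135 and 144 in EMX1-X1 1 to 3. All EMX1-FL libraries were below all vector libraries. EMX1-X1 split, with library 1 below the vector libraries and libraries 2 and 3 above them.
Relative to the vector control, VEGFB in EMX1-FL differed by -0.54 on the log2 scale (standard error 0.25, unadjusted p = 0.0485, adjusted p = 0.86, edgeR). For EMX1-X1 this difference was 0.34 (standard error 0.24, 95% interval -0.19 to 0.87, adjusted p = 0.709, edgeR). Between EMX1-FL and EMX1-X1 the value was -0.88 (standard error 0.25, interval -1.42 to -0.34, unadjusted p = 0.00397, adjusted p = 0.611, edgeR). None of these passed the threshold for a differentially expressed gene (DEG), an unadjusted p under 0.05 and a log2 fold change of 1 or more in size, and none passed an adjusted p of 0.05.
VEGFB was lower in EMX1-FL within both clusters of libraries. It differed from the vector libraries by a mean of -0.56 (log2) in cluster A and -0.51 in cluster B. For EMX1-X1 the mean was -0.24 in cluster A, where EMX1-X1 has 1 library, and 0.40 in cluster B, where the vector control has 1. Between the isoforms VEGFB was at -0.32 in cluster A and -0.91 in cluster B. With the cluster as a term in the model, EMX1-FL differed from the vector control by -0.54 (adjusted p = 0.0629, edgeR) and from EMX1-X1 by -0.66 (adjusted p = 0.17, edgeR). VEGFB passed the threshold against EMX1-X1 when EMX1-FL 1 was left out (-1, adjusted p = 0.0444, edgeR) or when EMX1-X1 1 was left out (-1.13, adjusted p = 0.111, edgeR). In these fits the share of all genes past the threshold also rose, from 1.42% to 6.06% and 3.89%, and without EMX1-FL 1 the adjusted calls made up 2.86% of all genes in place of 0%. Over all alternatives the adjusted p of VEGFB (edgeR, DESeq2 or limma) ran from 0.0629 to 1 for EMX1-FL against the vector control and from 0.0335 to 0.991 between the isoforms.

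VEGFC, the main ligand of FLT4 in lymphatic growth, had overlapping groups throughout. It lies on chromosome 4 from 176683538 to 176792922 on the minus strand, with no shared exon base. Its CPM were 90.6, 78.7 and 92.1 in vector control 1 to 3, 61.7, 85.2 and 72.8 in EMX1-FL 1 to 3, and 82.8, 72.6 and 79.2 in EMX1-X1 1 to 3. No group stood apart from another. The log2 fold change was -0.25 in EMX1-FL cells (standard error 0.17, 95% interval -0.62 to 0.12, adjusted p = 0.997, edgeR) and -0.16 in EMX1-X1 cells (interval -0.53 to 0.22, adjusted p = 0.792). Within clusters A and B it was -0.10 and -0.58 for EMX1-FL and -0.03 and -0.28 for EMX1-X1. VEGFD, the second FLT4 ligand, on chromosome X from 15345596 to 15384413, was counted 4, 5 and 13 times in vector control 1 to 3, 10, 9 and 10 times in EMX1-FL 1 to 3, and 2, 8 and 2 times in EMX1-X1 1 to 3. All EMX1-FL libraries were above all EMX1-X1 libraries, at 0.379 to 0.461 against 0.0807 to 0.332 CPM. Their difference was 1.35 on the log2 scale (standard error 0.71, interval -0.21 to 2.90, unadjusted p = 0.0832, adjusted p = 0.611, edgeR), and with counts this low it passed the threshold in some fits and not in others. It was 1.71 with the cluster as a term, 1.29 with limma on log2(TPM + 0.1) and 2.31 without EMX1-X1 2, each past the unadjusted threshold.

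PGF, placental growth factor, which like VEGFB binds FLT1, had its highest values in EMX1-X1 cells. It lies on chromosome 14 from 74941834 to 74955626 on the minus strand, with no shared exon base. Its CPM were 2.91, 5.10 and 5.89 in vector control 1 to 3, 7.35, 4.08 and 5.86 in EMX1-FL 1 to 3, and 5.82, 9.55 and 10.2 in EMX1-X1 1 to 3. EMX1-X1 2 and 3 were above every other library, while EMX1-X1 1 was just below vector control 3, so the groups overlapped by this 1 pair.
The log2 fold change of PGF was 0.88 in EMX1-X1 cells (standard error 0.32, 95% interval 0.17 to 1.58, unadjusted p = 0.0191, adjusted p = 0.568, edgeR). EMX1-FL cells were at 0.31 (standard error 0.32, interval -0.40 to 1.02, adjusted p = 0.997, edgeR). The 2 isoforms differed by -0.56 (interval -1.26 to 0.14, adjusted p = 0.611, edgeR), so a difference between them was not shown. Within clusters A and B the value was 0.34 and 0.32 for EMX1-FL and 0.58 and 0.73 for EMX1-X1, and between the isoforms -0.25 and -0.42. PGF passed the unadjusted threshold with the fold change when vector control 3 was left out (1.07) or EMX1-X1 1 was left out (1.09), where 2.76% and 4.86% of all genes did, and with an offset for the GC content of genes its log2 fold change was 0.45.

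**Figure D2:**
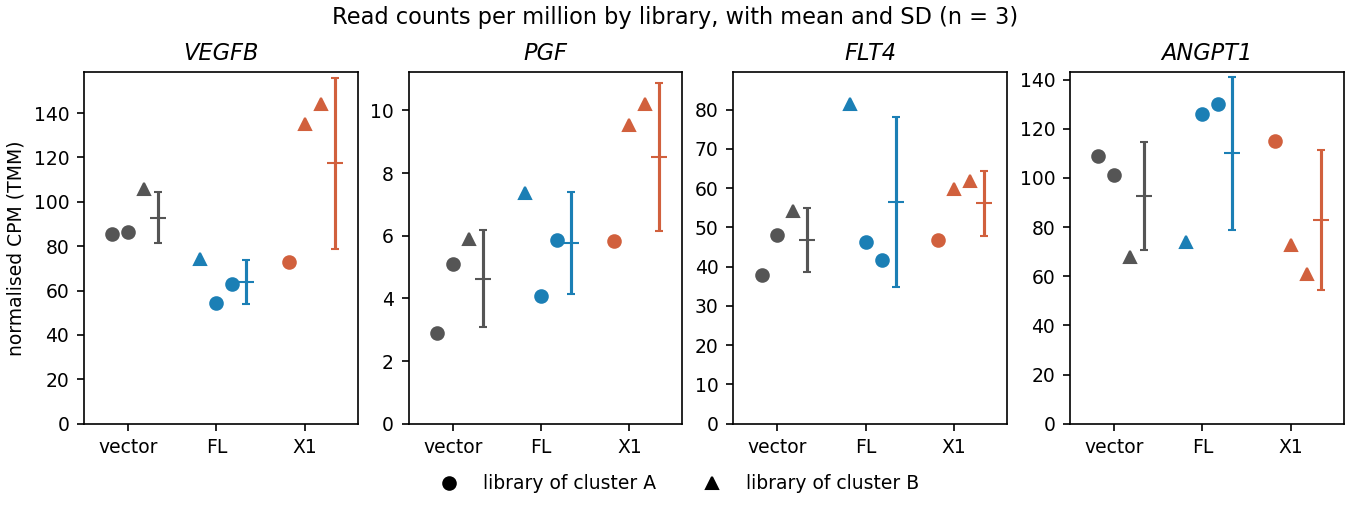
Normalised CPM of VEGFB, PGF, FLT4 and ANGPT1 in each library, circles for cluster A and triangles for cluster B, with the mean and SD of each group (n = 3) at its right. VEGFB, PGF and FLT4 are higher in the triangles and ANGPT1 in the circles of each group, and the 3 EMX1-FL libraries of VEGFB lie below the 3 vector libraries.

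The mix of the ligands followed from these levels. VEGFB made up 59.7 ± 2.08% of the summed TPM of the 5 VEGF ligands in the vector control, 53.9 ± 5.90% in EMX1-FL cells and 65.9 ± 9.02% in EMX1-X1 cells (SD, n = 3 each). EMX1-X1 2 and 3, at 71.2% and 71.1%, were above all other libraries, while EMX1-X1 1, at 55.5%, was below all vector libraries. VEGFC made up 33.2 ± 2.27%, 36.9 ± 7.54% and 27.6 ± 8.33%, and VEGFA 6.15 ± 0.316%, 7.66 ± 1.49% and 5.09 ± 0.804%. The share of VEGFA was above all vector libraries in EMX1-FL, at 6.71% to 9.38% against 5.83% to 6.46%. So were those of PGF, at 0.956% to 1.57% against 0.518% to 0.943%, and VEGFD, at 0.236% to 0.282% against 0.081% to 0.22%. The share of PGF was above them in EMX1-X1 too, at 1.18% to 1.34%. A share also depends on the other ligands, and the CPM of VEGFA itself were below all vector libraries in EMX1-FL 2 and 3. VEGFA has the length limit given above, and these shares were not tested.

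FLT4, the receptor of VEGFC and VEGFD, was the only VEGF receptor that was clearly counted. It lies on chromosome 5 from 180601506 to 180649624 on the minus strand. Its CPM were 38.0, 48.1 and 54.1 in vector control 1 to 3, 81.4, 46.3 and 41.8 in EMX1-FL 1 to 3, and 46.7, 59.8 and 61.9 in EMX1-X1 1 to 3. EMX1-FL 1 stood above all other libraries and the groups overlapped in each comparison. The log2 fold change was 0.27 in EMX1-FL cells (standard error 0.26, 95% interval -0.29 to 0.84, adjusted p = 0.997, edgeR) and 0.26 in EMX1-X1 cells (interval -0.30 to 0.83, adjusted p = 0.772). Within clusters A and B it was 0.04 and 0.59 for EMX1-FL and 0.13 and 0.17 for EMX1-X1. Without EMX1-FL 1 the first value was -0.084, and with the GC offset the second was -0.12, so neither direction was fixed.
KDR, the main signalling receptor of VEGFA, had no count in the 3 vector libraries, 1, 4 and 0 counts in EMX1-FL 1 to 3, and 0, 0 and 2 in EMX1-X1 1 to 3. FLT1 had 0, 0 and 3 counts in vector control 1 to 3, 0, 1 and 4 in EMX1-FL 1 to 3, and 1, 4 and 0 in EMX1-X1 1 to 3. A count of 0 allows up to 3 counts, or between 0.119 and 0.139 CPM in these libraries, for counting error only. This limit uses the library totals without the TMM factor, unlike the other CPM. Summed over 3 libraries, KDR had 5 counts in EMX1-FL (exact Poisson 95% interval 1.62 to 11.7) and 2 in EMX1-X1 (0.242 to 7.22), against 0 in the vector control. These intervals are two-sided, while the limit of 3 counts for a count of 0 is one-sided. The intervals of both genes overlapped between all groups. They leave out the spread between libraries, and their overlap is not a test, so no difference is read from these few counts. The endothelial markers PECAM1 and VWF, typical of the vessel cells in which KDR is known, were at no more than 0.162 and 0.138 TPM in any library. Of the same marker list EGFL7, at 24.2 to 67.6 TPM, and ESAM, at 5.26 to 13 TPM, went the other way.

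ANGPT1, the activating ligand of TEK, was abundant and varied with the clusters of libraries more than with the groups. It lies on chromosome 8 from 107249482 to 107498055 on the minus strand. Its CPM were 109, 101 and 67.8 in vector control 1 to 3, 74.1, 126 and 130 in EMX1-FL 1 to 3, and 115, 72.7 and 60.9 in EMX1-X1 1 to 3. In each group the libraries of cluster A were above those of cluster B. Within cluster A, EMX1-FL differed from the vector control by 0.29 and EMX1-X1 by 0.13 on the log2 scale, and within cluster B by 0.13 and -0.03. Over all libraries the log2 fold change was 0.25 in EMX1-FL cells (standard error 0.29, 95% interval -0.38 to 0.87, adjusted p = 0.997, edgeR) and -0.16 in EMX1-X1 cells (interval -0.79 to 0.47, adjusted p = 0.875). The second value turned to 0.063 with the cluster as a term.
ANGPT2, the vessel-destabilising counterpart, on chromosome 8 from 6499651 to 6563409, was counted 2, 17 and 4 times in vector control 1 to 3, 4, 7 and 32 times in EMX1-FL 1 to 3, and 16, 6 and 7 times in EMX1-X1 1 to 3. A single library, EMX1-FL 3, held most of the EMX1-FL counts. Its log2 difference was 0.96 in EMX1-FL cells (standard error 0.91, 95% interval -1.02 to 2.94, adjusted p = 0.997, edgeR) and -0.46 without EMX1-FL 3. The EMX1-X1 value was 0.27 (standard error 0.93, interval -1.76 to 2.30, adjusted p = 0.934, edgeR). Both intervals hold changes by a fold of 2 in either direction, and MCPH1 overlaps 1.2% of the exon bases of ANGPT2.

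No member passed the DEG threshold in any of the 3 comparisons, where 2.42% of all genes tested did in EMX1-FL, 2.5% in EMX1-X1 and 1.42% between the isoforms. With single libraries left out these shares ran from 2.26% to 3.47%, from 1.59% (without EMX1-X1 2) to 4.86% (without EMX1-X1 1) and from 0.678% (without EMX1-X1 3) to 6.06% (without EMX1-FL 1). DESeq2 also called 0 members in each comparison, as did limma on log2(TPM + 1), while limma on log2(TPM + 0.1) called 1, VEGFD between the isoforms. With the adjusted p in place of the unadjusted one, 0 members were called in each, against 0.07%, 0.00538% and 0% of all genes. At an unadjusted p under 0.05 alone, 1 of 8 members passed in each comparison, VEGFB in EMX1-FL (5.8% of all genes), PGF in EMX1-X1 (8.11%) and VEGFB between the isoforms (7.63%). The groups did not overlap for 1 of 8 members in each comparison, VEGFB in EMX1-FL (10.5% of all genes), VEGFA in EMX1-X1 (14.7%) and VEGFD between the isoforms (8.38%). A two-sided exact permutation test of 3 libraries against 3 gave p = 0.1 for these, the smallest p it allows. A count of 1 is the smallest above 0 for 8 members, so nothing particular to them is read from it. The median log2 fold change of the 8 members was 0.26, 0.07 and 0.04 in the 3 comparisons, against 0.045, 0.01 and 0.021 for all genes tested. The comparisons with the vector control share its 3 libraries.

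**Figure D3:**
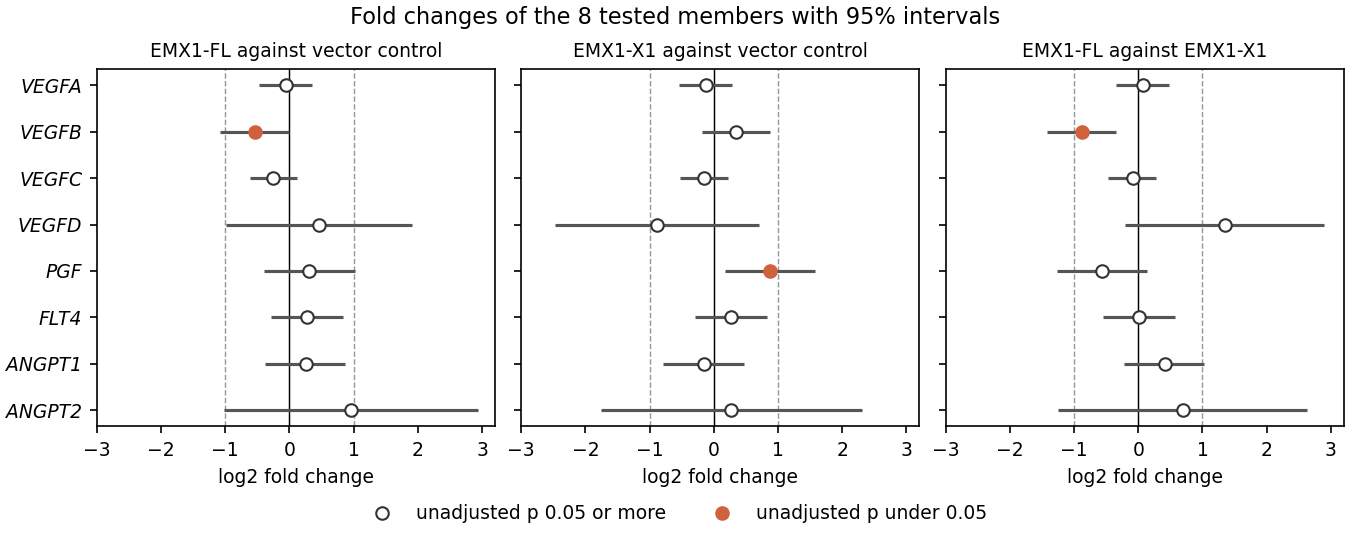
Log2 fold changes of the 8 tested members with 95% intervals in the 3 comparisons, with dashed lines at -1 and 1. Filled points had an unadjusted p under 0.05 (VEGFB at -0.54 and -0.88, PGF at 0.88), no point has both that p and an absolute value of at least 1, and VEGFD and ANGPT2 have the widest intervals.

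The differences between the clusters followed the GC content of the genes, for the members as for genes at large. Across 17752 genes, the log2 difference of cluster B from cluster A within groups had a Pearson r of 0.758 with GC content, given as a description over genes of the same 9 libraries. With the genes in 10 bins of GC content, the median difference went from -0.63 in the lowest bin to 0.64 in the highest. VEGFB (61.8% GC) was higher in cluster B by 0.53, FLT4 (62.8%) by 0.54, PGF (63.4%) by 0.64 and VEGFA (57.2%) by 0.30. ANGPT1 (37.6%) was at -0.73 and VEGFC (47.1%) at -0.12. VEGFD (45.1%) at 0.62 and ANGPT2 (42.8%) at -1.08 lay off the medians and rest on few counts. The part of the clusters in the values of VEGFB, PGF and FLT4 in EMX1-X1 cells was not tested beyond the fits given, in which the cluster term or the GC offset lowered the VEGFB value from 0.34 to 0.12 and -0.064.

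**Figure D4:**
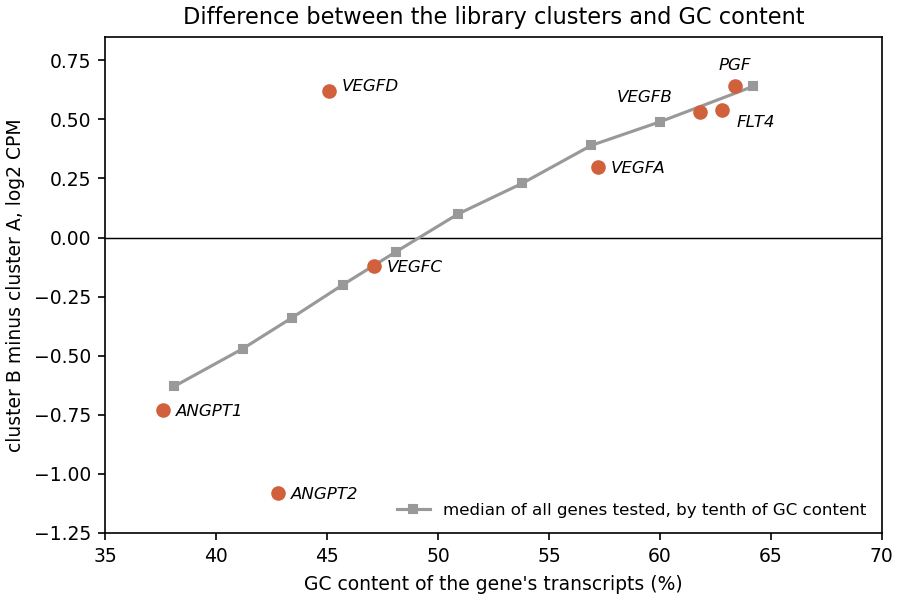
Log2 difference of CPM between cluster B and cluster A of libraries, averaged over the groups, against the GC content of the gene's transcripts in percent. Grey squares are the medians of 10 bins of all genes tested, from -0.63 to 0.64, and orange points are the 8 tested members, of which VEGFD and ANGPT2 lie far from the grey line.

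Among all genes tested, those most alike to VEGFB over the 9 libraries in log2 CPM were ZNF628 (Pearson r = 0.991), TCF7L1 (0.989) and DVL3 (0.985). For VEGFC they were SOCS2 (0.952), AL135878.1 (0.949) and ZIC5 (0.946), and for ANGPT1 PGBD4 (0.993), AKAP6 (0.993) and SEC62 (0.992). After removing the cluster means the values were 0.982, 0.978 and 0.970 for VEGFB, 0.95, 0.943 and 0.952 for VEGFC, and 0.934, 0.952 and 0.919 for ANGPT1. These are the top of 18574 genes and share the libraries and their depth, so they are a description.

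Of the genes around the members, the co-receptor NRP2 was lower in value in all 6 overexpression libraries. NRP2, neuropilin 2, binds VEGFC and VEGFA beside the VEGF receptors, and was counted at 390 to 428 CPM in the vector control, 209 to 252 in EMX1-FL and 273 to 298 in EMX1-X1. The 3 groups did not overlap. EMX1-FL cells were at -0.87 on the log2 scale (standard error 0.14, unadjusted p = 6.62e-05, adjusted p = 0.0627, edgeR) and EMX1-X1 cells at -0.52 (unadjusted p = 0.00357, adjusted p = 0.462, edgeR), short of the fold change threshold in both. The values within clusters A and B were -0.92 and -0.76 for EMX1-FL and -0.55 and -0.55 for EMX1-X1. NRP1 was far lower, at 0.21 to 0.537 TPM, and differed by 0.79 (log2) in EMX1-FL cells (adjusted p = 0.864, edgeR). The angiopoietin receptors TEK and TIE1, the phosphatase PTPRB and the further ligand ANGPT4 did not pass the filter on low counts, so 2 of 6 genes of this list were tested and none passed the threshold. TEK had no count in the vector libraries, 2 to 5 in each EMX1-FL library and 0 to 4 in the EMX1-X1 libraries.
In the other lists around the members, PCSK5 and EGLN3 passed the threshold in both overexpression groups and ADM in EMX1-X1 alone. Of all genes tested, 2.42% passed in EMX1-FL and 2.5% in EMX1-X1. Each list held at most 11 tested genes, so nothing particular to a list is read from a count of 0 or 1. Of the 5 genes of ligand processing, which cut VEGFC and VEGFD to their active forms or help in it, 4 were tested. PCSK5, a proprotein convertase, rose in EMX1-FL cells, by 1.28 (log2, standard error 0.55, unadjusted p = 0.0374, adjusted p = 0.828, edgeR) and in EMX1-X1 cells by 1.37 (adjusted p = 0.575). It was counted only 5 to 41 times per library. Its EMX1-FL value was 2.06 within cluster A and -0.32 within cluster B, and the call was lost in 7 of 18 alternatives in EMX1-FL and in 5 of 18 in EMX1-X1. FURIN, the main convertase of VEGFC, was at 20.3 to 25.6 CPM in the vector control, 14.5 to 34.7 in EMX1-FL and 28.3 to 43.1 in EMX1-X1, with a log2 fold change of 0.73 in EMX1-X1 cells (unadjusted p = 0.0317, adjusted p = 0.576, edgeR). PCSK7, at 0.03 and 0.16, and CCBE1, which helps the protease ADAMTS3 to cut VEGFC, at 0.95 and 0.18 in EMX1-FL and EMX1-X1 cells, did not pass.
None of 6 tested genes among 8 secreted inhibitors of angiogenesis passed the threshold in any comparison. THBS1, thrombospondin 1, was at 145 to 185 CPM in the vector control, 199 to 326 in EMX1-FL and 240 to 243 in EMX1-X1. All 6 overexpression libraries were above the vector libraries, while EMX1-X1 lay inside the range of EMX1-FL. It had log2 fold changes of 0.76 (unadjusted p = 0.00209, adjusted p = 0.269, edgeR) and 0.59 (unadjusted p = 0.01, adjusted p = 0.536, edgeR). SERPINF1, pigment epithelium-derived factor, was lower in value in every EMX1-FL library, at 0.738 to 1.22 CPM against 1.37 to 2.59 in the vector control, without overlap and with a log2 fold change of -0.97 (unadjusted p = 0.0177, adjusted p = 0.659, edgeR), and was at -0.21 in EMX1-X1 cells. TIMP3 was at -0.02 and -0.27 and VASH1 at 0.41 and 0.51. The median of the 6 was 0.18 in EMX1-FL and 0.15 in EMX1-X1, against 0.045 and 0.01 for all genes. Of 13 genes of VEGF receptor signalling, 10 were tested and none passed. The 3 with the highest TPM were PLCG1, PTK2 and AKT1, at -0.01, -0.07 and -0.08 in EMX1-FL and 0.21, -0.19 and 0.09 in EMX1-X1 cells.
HIF proteins drive VEGFA in low oxygen, and their subunits and regulators were all tested. EGLN3, a prolyl hydroxylase that marks HIF for degradation, rose in both overexpression groups, from 0.305 to 0.513 CPM in the vector control to 0.673 to 1.51 in EMX1-FL and 1.08 to 1.62 in EMX1-X1. Neither overlapped with the vector control, while the 2 overlapped with each other. Its log2 fold change was 1.52 (standard error 0.45, unadjusted p = 0.00589, adjusted p = 0.413, edgeR) and 1.80 (standard error 0.45, unadjusted p = 0.00185, adjusted p = 0.399, edgeR). It was counted 7 to 39 times per library, and limma on log2(TPM + 1), which damps genes this low, called it in neither group (0.40 and 0.51). The other 7 of 8 did not pass: HIF1A was at 0.28 and -0.09, VHL at -0.17 and -0.23, and ARNT at -0.29 and -0.04. EPAS1, which encodes HIF-2 alpha, was at 0.23 and 0.73 (unadjusted p = 0.266 and 0.00303, adjusted p = 0.997 and 0.449, edgeR). In EMX1-X1 it did not overlap with the vector control and was at 0.53 and 0.69 within clusters A and B, short of the fold change threshold.
Of 12 HIF target genes 11 were tested. ADM, adrenomedullin, a peptide that acts on vessels, rose in EMX1-X1 cells by a log2 fold change of 1.12 (standard error 0.24, unadjusted p = 0.000586, adjusted p = 0.31, edgeR), and its value in EMX1-FL cells was 0.78 (adjusted p = 0.467), under the fold change threshold. ADM was at 8.13 to 10.7 CPM in the vector control, 13.9 to 16.9 in EMX1-FL and 13.3 to 24.5 in EMX1-X1. Both overexpression groups were above the vector libraries, and the isoforms differed by -0.34 with an interval of -0.86 to 0.18. The call was lost with the cluster as a term, with the GC offset and without EMX1-X1 3. The glycolytic targets ENO1, PGK1 and LDHA, with the highest TPM of the list, were at -0.14, -0.04 and -0.06 in EMX1-FL and 0.20, -0.09 and -0.36 in EMX1-X1 cells. The median of the 11 was 0.05 in EMX1-FL and -0.01 in EMX1-X1, against 0.045 and 0.01 for all genes.

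**Figure D5:**
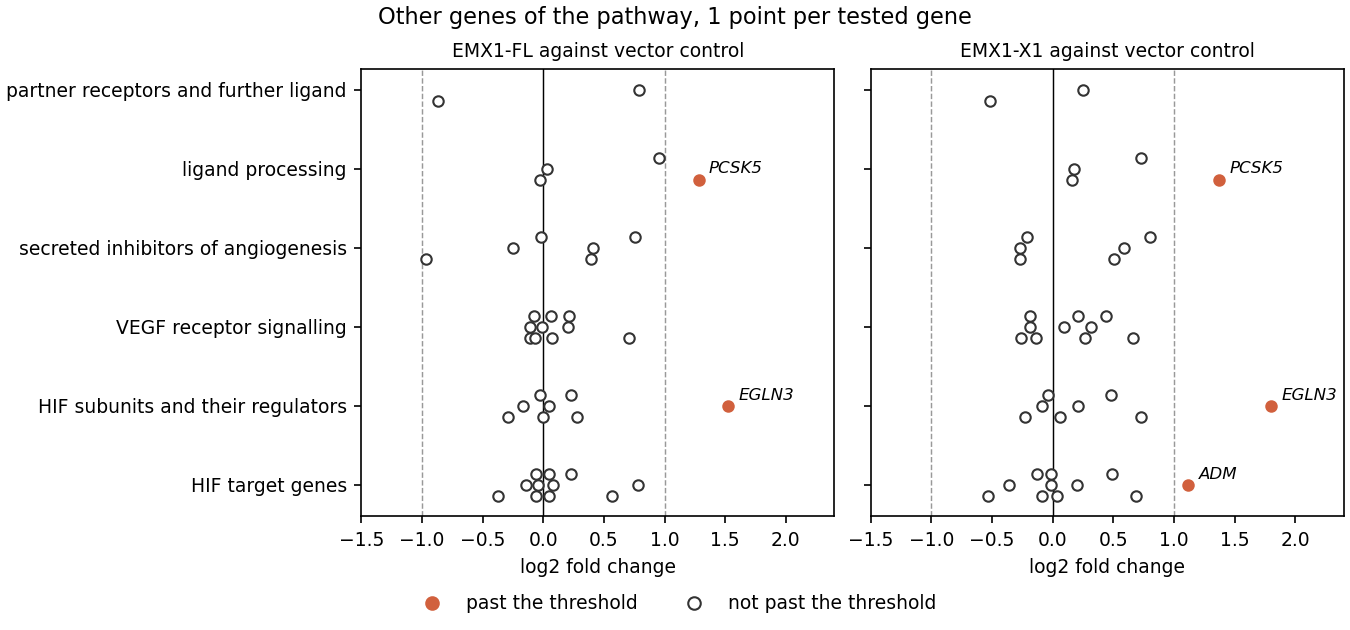
Log2 fold changes of the tested genes of 6 further lists in EMX1-FL and EMX1-X1 cells against the vector control, 1 point per gene with dashed lines at -1 and 1. PCSK5 and EGLN3 are past the threshold in both panels (1.28 and 1.52, then 1.37 and 1.80) and ADM in EMX1-X1 alone (1.12), and the other points are not.

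Some genes known as markers of cell types or states moved with the groups, and their link to the values of the members was not tested. Of the 10 endothelial markers 3 were tested, and ERG, an endothelial transcription factor, rose in EMX1-FL cells by 1.73 on the log2 scale (standard error 0.59, unadjusted p = 0.0124, adjusted p = 0.579, edgeR), from 3, 6 and 12 counts in the vector libraries to 14, 19 and 35. Within clusters A and B its difference was 2.17 and 0.28, and the call was lost in 3 of 18 alternatives. ESAM and EGFL7, the other tested markers of this list, were at -0.14 and 0.30 in EMX1-FL cells and did not pass. In EMX1-X1 cells ERG, ESAM and EGFL7 were at 0.42, 0.52 and 0.74, and none passed. Summed over the list, endothelial markers were at 33.7 to 46.1 TPM in the vector control, 30.9 to 76.8 in EMX1-FL and 42.9 to 80.1 in EMX1-X1, and EGFL7 made up most of it. Of the 7 hepatocyte and hepatoma markers 2 were tested, and ALB rose in EMX1-FL by 1.46 (adjusted p = 0.467, edgeR) and in EMX1-X1 by 1.11 (adjusted p = 0.576, edgeR), at 10 to 53 counts per library. The call was lost in 1 of 19 alternatives in EMX1-FL, and in 5 of 19 in EMX1-X1, where the values ran from 0.58 to 1.35 and leaving out vector control 1 or 2 or EMX1-X1 2 or 3 ended it. The list summed to 15.5 to 22.3, 18.6 to 30.1 and 18 to 22.2 TPM, most of it GPC3. GPC3, the other tested marker of this list, was at 0.19 in EMX1-FL and -0.11 in EMX1-X1 on the log2 scale and did not pass. Of the 5 mesenchymal markers, all tested, ZEB1 passed the threshold in EMX1-FL at 1.22 (unadjusted p = 0.0413, adjusted p = 0.837, edgeR), with 15, 70 and 62 counts in EMX1-FL 1 to 3 against 34, 18 and 13 in vector control 1 to 3. The groups overlapped, the values within clusters A and B were 1.37 and 0.27, and the call was lost in 10 of 19 alternatives. VIM, FN1 and ZEB2 were at 0.08, 0.60 and -0.12 in EMX1-FL and -0.23, 0.55 and -0.44 in EMX1-X1 cells. FN1 overlapped with the vector control in neither group (unadjusted p = 0.00133 and 0.00256, adjusted p = 0.216 and 0.433, edgeR), short of the fold change threshold. CDH2 was at 0.58 and 0.48 (unadjusted p = 0.0206 and 0.0463, adjusted p = 0.7 and 0.609, edgeR), also short of it. By the titles all libraries were of SNU-398 cells, so these markers are given as transcripts of that line and not as measures of other cells. In bulk RNA, a change in some of the cells and a change in all of them cannot be told apart.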

How the data were processed

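RNA was sequenced from SNU-398 cells in 9 libraries, grouped by the sample titles. The count table that the authors deposited holds unnormalised read-pair counts for each gene name. Its header gives featureCounts 2.0.1, run on exons with Ensembl release 99 of GRCh38 and without a strand option, so antisense reads are not told apart and, by the program's default, pairs on more than 1 gene are dropped. The submitters' processing notes name featureCounts 2.0.6 and STAR, whereas RSEM stands in the study's methods. A second deposited table holds log2(TPM + 1), and its values were recomputed from the counts and listed lengths to within 5e-06.

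The test was that of edgeR 4.0.16 in R 4.3.3 (filterByExpr, TMM, quasi-likelihood F test, all 9 libraries, group as the only term) with Benjamini-Hochberg adjustment over 18574 genes. The study's methods give Student's test or one-way analysis of variance for its statistics in general, and DESeq2 for genes of a public tumour cohort, but tie no test to the fold changes of these cells. The choice of edgeR for the counts is that of this re-analysis, while the DEG threshold, an unadjusted p under 0.05 and a log2 fold change of 1 or more in size, is the study's. Intervals are at 95%. CPM use all counted pairs times the TMM factor. GC content and the longest coding transcript were taken from GENCODE release 29, which gave GC for 95.6% of the genes tested. Promoter windows are from RefSeq, and 6 of the 10 genes were in that table. VEGFA, FLT4, ANGPT1 and ANGPT2 were not among them. Sequences were read with Python 3.11.15, and plots were made with matplotlib 3.10.9 and pandas 2.3.3. The model was also run on simulated counts. These were drawn without clusters of libraries or an effect of GC content, so that run says nothing on how the model deals with either.

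The genes, lists and tests were chosen with earlier results of these data known. The text names all 10 genes and EMX1, the listed genes past the threshold and up to 3 of each list with the highest mean TPM, and the 3 genes most alike to each of the 3 members with the highest TPM. TEK, TIE1, PTPRB, EPAS1, SERPINF1, ADAMTS3, PECAM1, VWF, CDH5, EMCN, AFP, TTR and CDH2 fall outside this rule and were named after their values were seen. Alternatives were RLE factors, limma 3.58.1 on log2 TPM with a pseudocount of 1 or 0.1, DESeq2 1.42.0, a filter of only 1 count in all or of 10 counts in every library, the 6 compared libraries alone, a replicate block, the cluster as a covariate, each library left out, and no fold change threshold. The GC offset (loess, span 0.3) and the longest coding transcript were added after seeing the data.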

Additional observations from a re-analysis of the deposited data

Results flagged for a closer look

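EMX1-FL and EMX1-X1 cells differed at an unadjusted p under 0.05 in 6 of the 59 tested genes of all lists, each tested as the difference between the 2 overexpression groups. None held after adjustment over all genes (adjusted p = 0.611 for each, edgeR). In this comparison 7.63% of all genes tested reach such a p, against 10.2% of the 59. Nothing particular to these genes is read from this count. Against the vector control the share of the 59 was higher, at 13 genes (22%) in EMX1-FL and 13 (22%) in EMX1-X1. Of all genes tested, 5.8% and 8.11% reached such a p there. The lists were chosen with earlier results known, and this excess was not tested. VEGFB, a ligand of FLT1, was at -0.88 on the log2 scale in EMX1-FL against EMX1-X1 cells (unadjusted p = 0.00397, edgeR), lower in 3 of 3 libraries than EMX1-X1 2 and 3 and in 2 of 3 than EMX1-X1 1. NRP2, the co-receptor of VEGFC, was at -0.35 (unadjusted p = 0.0329 and adjusted p = 0.611, edgeR) without overlap of the groups. FURIN, which processes VEGFC, was at -0.76 (unadjusted p = 0.0268 and adjusted p = 0.611, edgeR), and EPAS1, the HIF-2 alpha subunit, at -0.5 (unadjusted p = 0.0252 and adjusted p = 0.611, edgeR). The endothelial junction gene ESAM was at -0.65 (unadjusted p = 0.0244 and adjusted p = 0.611, edgeR), and the endothelial transcription factor ERG, counted 3 to 35 times per library, at 1.31 (unadjusted p = 0.0403 and adjusted p = 0.611, edgeR). ERG alone of the 6 was past the DEG threshold, and that call was lost in 9 of 18 alternatives (0.31 to 1.55 over the 18).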

How the results depend on the processing

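The 24 log2 fold changes of the members were refitted under up to 19 alternatives each. In 421 refits direction and side of the threshold stayed, in 7 the threshold was newly passed, and in 22 the sign turned. Counting an unadjusted p alone gave 1 member called in each comparison. Leaving out single libraries gave 0 to 1 members called in EMX1-X1 and 0 to 1 between the isoforms, and limma on log2(TPM + 0.1) and the cluster covariate each gave 1 (VEGFD) there. Signs turned for VEGFA in EMX1-FL with limma on log2(TPM + 1) (0.0066) and log2(TPM + 0.1) (0.0060), for ANGPT1 in EMX1-X1 with the cluster covariate (0.063) and the GC offset (0.013), and for VEGFB (-0.064) and FLT4 (-0.12) in EMX1-X1 with the GC offset. FLT4 between the isoforms was at -0.044 and -0.048 with limma and at -0.0019 with the replicate block. With single libraries left out, EMX1-FL against the vector control ranged from -0.084 to 0.45 for FLT4, -0.29 to 0.023 for VEGFA and -0.46 to 2.31 for ANGPT2. EMX1-X1 against it ranged from -0.47 to 0.02 for ANGPT1 and -0.30 to 1.61 for ANGPT2. The isoforms ranged from -0.15 to 0.17 for VEGFA, -0.22 to 0.016 for VEGFC, -0.35 to 0.19 for FLT4 and -0.74 to 1.26 for ANGPT2. VEGFB between the isoforms stayed negative throughout, from -1.13 to -0.48, and was past an adjusted p of 0.05 in 2 settings, with no filter beyond 1 count (adjusted p = 0.0335, edgeR) and without EMX1-FL 1. The causes of these shifts were not tested.

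Of 9 same-numbered pairs of libraries, 3 had a residual correlation over 0.1 (range -0.522 to 0.29). Those 3 were pairs within a cluster, and the others, all negative, joined a library of cluster A with one of cluster B. The correlation thus went with the clusters and cannot decide whether replicate numbers pair the libraries. The replicate block called 0 members in each comparison, with VEGFB between the isoforms at -0.84 (adjusted p = 0.77, edgeR). VEGFD and ANGPT2 have no value with at least 10 counts in every library. The calls over all genes, 450 in EMX1-FL, 464 in EMX1-X1 and 263 between the isoforms, were 142, 177 and 107 with limma on log2(TPM + 1), 947, 962 and 686 without the filter, and 217, 214 and 121 with 10 counts in every library. Between the isoforms they were 1125 without EMX1-FL 1, 722 without EMX1-X1 1, 153 without EMX1-X1 2 and 126 without EMX1-X1 3, and in EMX1-X1 902 without EMX1-X1 1 and 296 without EMX1-X1 2. Calls by adjusted p ran from 1 to 125, 1 to 112 and 0 to 531 over all settings. The GC offset put FLT4 between the isoforms at 0.32 (unadjusted p = 0.0251, edgeR). Limma on log2(TPM + 0.1) moved the median of all genes in EMX1-X1 from 0.01 to 0.111. Depth limits FLT1, KDR, VEGFD and ANGPT2, whose counts are few, more than the other members.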
